A study of Mus musculus with 6 samples.

Results

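The 10 genes Ryr1, Cacna1s, Trdn, Jph1, Casq1, Casq2, Atp2a1, Atp2a2, Sln and Pvalb encode the machinery by which a skeletal muscle fibre turns membrane excitation into a calcium signal and then clears it. They were taken by symbol from the 55484 genes of the deposited tables, and all 10 were found and had been tested by the authors. The tissue was femoral bone, taken from male C57BL/6 mice of wild-type genotype fed normal chow (ND). The 3 mice labelled ND/WCR spent 6 weeks in single cages fitted with a wheel they could run in at will, and the 3 mice labelled ND/SED were housed alone in cages without a wheel for as long. Mice of both groups were 6 weeks old at the start and 12 weeks old at the end. The design sets voluntary wheel running against sedentary housing.

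In skeletal muscle, an action potential runs into the transverse tubules and moves the voltage sensor, the L-type calcium channel whose main subunit is encoded by Cacna1s. The sensor opens the ryanodine receptor RyR1 in the facing membrane of the sarcoplasmic reticulum, calcium leaves the store where calsequestrin holds it, and the sarcomeres shorten. SERCA pumps then return calcium to the store, sarcolipin restrains the pump, and in fast fibres parvalbumin binds calcium in the cytosol. Bone cells are not known for this machinery as a whole, although Atp2a2 is used by most cell types.

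For every gene the deposited tables give a single level for each group in FPKM (fragments per kilobase of transcript, scaled to library depth), with the lower and upper bound of the authors' interval, so the spread between mice is unknown. A gene was called when the q-value in the authors' deposited table (p adjusted over all tested genes) lay under 0.05. Log2 folds compare wheel running with sedentary mice after 0.1 was added to each FPKM, which makes the folds of low genes smaller than they are. From the lowest values of single-exon genes, the depth was estimated at 13800000, 17200000 and 17400000 effective fragments for the wheel running libraries and 14300000, 14500000 and 16400000 for the sedentary ones. It holds only if each group level averages 3 libraries after scaling. Values under a fixed floor were dropped and exactly 3 clusters of values per group were required, so the count of 3 was assumed, not found. Bone markers were present, with the osteoblast gene Bglap at 3184 FPKM in wheel running and 3157 FPKM in sedentary mice and the osteocyte gene Dmp1 at 169 FPKM in wheel running and 145 FPKM in sedentary mice.

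Of the 10 genes, Ryr1 alone was called, and it was higher in the wheel running mice. Across the 15508 tested genes 0.941% were called in either direction and 0.445% were called higher. Atp2a1, the fast-fibre calcium pump, came next at a q-value of 0.0798 in the authors' deposited table. In all, 9 of the 10 genes had a positive log2 fold, against 48.2% of all tested genes; scaled to an equal total FPKM, the figures were 10 of 10 and 59.3%. The median log2 fold of the 10 genes was 0.20, against -0.0067 over all tested genes. Ryr1, Atp2a1 and Sln had an unadjusted p under 0.05 in the authors' deposited table, a limit that 5.65% of all tested genes passed, 3.42% being higher. For all 10 genes the authors' intervals overlapped between the groups. Over all tested genes they lay apart for only 0.574%, so the overlap was not particular to these 10 genes. The call of Ryr1 held with q under 0.01 (0.696% of tested genes called) and with q recomputed over genes with FPKM of at least 1 (1.04%). The 108 genes with q under 0.01 all tie at the lowest p that any gene reached. Passing that stricter limit therefore only restates the tie and is no separate check of the call. The call of Ryr1 was lost when the intervals also had to lie apart (0.445%) or the test statistic had to be at least 1.96 in size (0.877%).

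**Figure D1:**
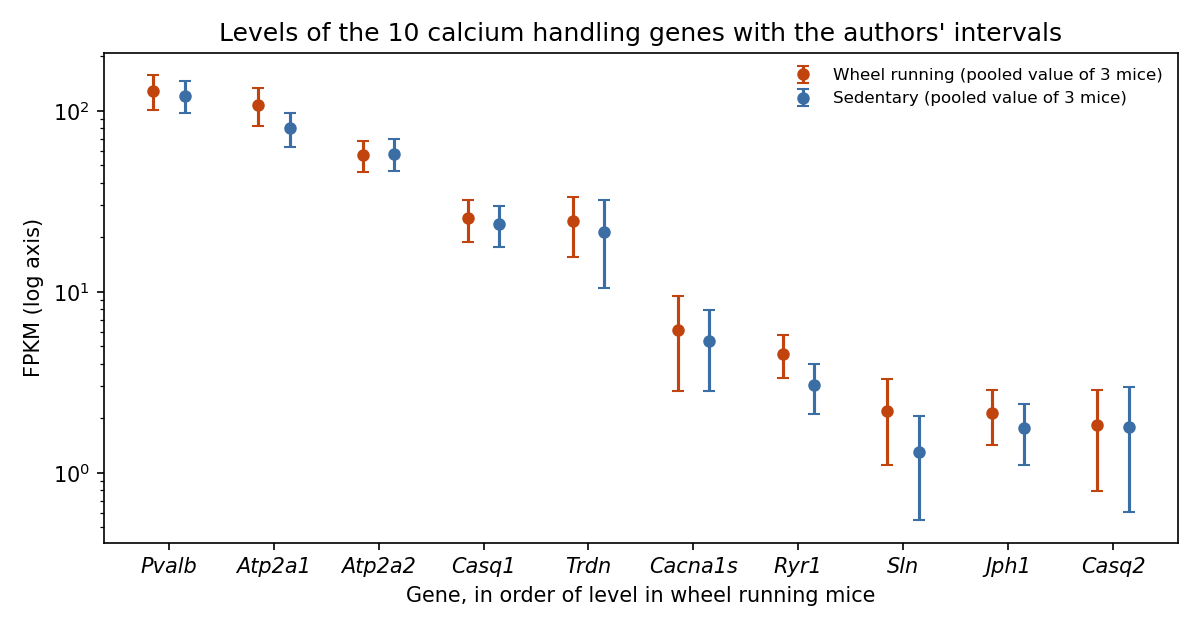
FPKM of the 10 genes on a log axis in wheel running mice (left point of each gene) and sedentary mice (right point), each the pooled value of 3 mice, with bars for the authors' interval. The intervals of the groups overlap for every gene, and over all tested genes they lay apart for only 0.574%. The points lie farthest apart for Sln (1.70-fold), Ryr1 (1.48-fold) and Atp2a1 (1.34-fold).

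The stretch before the transcription start is shown for 3 genes: Ryr1, which was called, Atp2a1, which came closest to the threshold, and Casq1, which did not pass it. Each is the 250 bases upstream of the RefSeq start on build GRCm38.p6, 5′ to 3′ on the strand of the gene, with matches to the E-box CANNTG, the kind of sequence bound by myogenic factors such as MyoD, in capitals.
Ryr1 (chr7:29125152-29125401, minus strand): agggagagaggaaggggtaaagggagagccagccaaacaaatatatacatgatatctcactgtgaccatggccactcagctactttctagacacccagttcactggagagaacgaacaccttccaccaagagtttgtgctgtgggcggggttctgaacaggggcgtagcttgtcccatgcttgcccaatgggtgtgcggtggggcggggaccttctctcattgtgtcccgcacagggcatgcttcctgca
Atp2a1 (chr7:126463074-126463323, minus strand): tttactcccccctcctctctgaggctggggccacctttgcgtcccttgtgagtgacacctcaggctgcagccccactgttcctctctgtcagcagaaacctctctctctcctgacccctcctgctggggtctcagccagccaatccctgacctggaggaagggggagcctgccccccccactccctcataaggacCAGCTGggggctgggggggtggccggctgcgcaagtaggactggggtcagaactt
Casq1 (chr1:172219896-172220145, minus strand): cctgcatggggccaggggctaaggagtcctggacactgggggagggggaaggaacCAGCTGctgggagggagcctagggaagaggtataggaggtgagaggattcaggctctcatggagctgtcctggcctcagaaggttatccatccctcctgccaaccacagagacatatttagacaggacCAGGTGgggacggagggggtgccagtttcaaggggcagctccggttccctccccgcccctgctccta
The Ryr1 window held 0 E-boxes, that of Atp2a1 held 1 and that of Casq1 held 2. The match in Atp2a1 reads CAGCTG, as does the first of the matches in Casq1. An E-box was present in 66.2% of all 32851 upstream windows of this length. RefSeq windows were matched for 6 of the 10 genes, with 2 starts for Pvalb. Cacna1s and Casq2 held 2 E-boxes each, and the Pvalb starts held 0 and 1. The consensus MEF2 box, which reads alike on both strands, was present in 2.92% of all windows. It was found in 2 of these 7 windows, that of Casq2 and the Pvalb start with 0 E-boxes, with 1 match each. TATAAA on either strand, present in 12.4% of all windows, was found in 0 of the 7. The motif matches did not overlap one another, and they describe the letters only.

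Among the genes of the voltage sensor and the release channel, Ryr1 rose and Cacna1s, Trdn and Jph1 were not called. Ryr1 (ENSMUSG00000030592; chromosome 7, 29003344 to 29125179, minus strand, GRCm38) encodes the calcium release channel of the sarcoplasmic reticulum. Its level was 4.53 FPKM (interval 3.32 to 5.73) in wheel running mice and 3.05 FPKM (2.12 to 3.98) in sedentary mice, a 1.48-fold difference with a log2 fold of 0.55. Its q-value in the authors' deposited table was 0.00718, from a p of 5e-05, the smallest in that table and shared by 108 genes. The deposited test statistic was 1.94, and Ryr1 is 1 of 10 among the 146 called genes whose statistic is under 1.96 in size. A normal score of that size would give a larger p, and no source used here says how p was derived from it.

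Ryr1 is a long transcript, at 15358 nt for the longest annotated coding form, so a low FPKM still rests on many fragments. At the estimated depth its level corresponds to about 3307 fragments over the wheel running libraries and about 2086 over the sedentary ones, if all came from the longest form. The other ryanodine receptor genes were near 0 and were not tested by the authors. Ryr2, the cardiac channel, stood at 0.0684 FPKM in wheel running and 0.0653 FPKM in sedentary mice. Ryr3, a minor muscle and brain channel, stood at 0.010 FPKM in wheel running and 0.013 FPKM in sedentary mice.

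Cacna1s (chromosome 1, 136052750 to 136119822, plus strand) encodes the pore-forming voltage sensor that opens RyR1. It stood at 6.18 FPKM (2.84 to 9.51) in wheel running mice and 5.35 FPKM (2.83 to 7.88) in sedentary mice, with a log2 fold of 0.20 and a q-value of 0.9997 in the authors' deposited table. Its interval reached 54.0% of the FPKM to either side in wheel running mice and 47.1% in sedentary mice, against a median of 26.1% and 26.3% over tested genes with FPKM of at least 10. The ratio of Ryr1 to Cacna1s was 0.733 in wheel running and 0.570 in sedentary mice, a difference that was not tested.

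Trdn (chromosome 10, 33080554 to 33476709, plus strand) encodes triadin, which ties calsequestrin to the release channel. It had 24.4 FPKM (15.5 to 33.4) in wheel running and 21.3 FPKM (10.5 to 32.1) in sedentary mice, a log2 fold of 0.20 that was not called. The annotation gives Trdn 7 coding transcripts between 356 and 4514 nt, and an FPKM summed over forms of such different length is less certain than one of a single form. The same limit applies to Atp2a1 (681 to 3477 nt), Casq1 (493 to 1847 nt) and Casq2 (936 to 2556 nt), and so to their ratios. Jph1 (chromosome 1, 16964560 to 17097889, minus strand) encodes junctophilin 1, which holds the tubule and store membranes together. It had 2.14 FPKM (1.41 to 2.86) in wheel running and 1.76 FPKM (1.11 to 2.41) in sedentary mice, a log2 fold of 0.27 that was not called. Its paralog Jph2, which serves heart and skeletal muscle, was at 3.66 FPKM (2.71 to 4.62) in wheel running and 2.82 FPKM (2.05 to 3.59) in sedentary mice. For Jph2 the log2 fold was 0.36 and the unadjusted p in the authors' deposited table was 0.0181, with a q-value of 0.596.

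Neither gene of the calcium-storing calsequestrins was called. Casq1 (chromosome 1, 172209894 to 172219868, minus strand), the main calsequestrin of skeletal fibres, had 25.4 FPKM (18.9 to 32.0) in wheel running and 23.7 FPKM (17.6 to 29.7) in sedentary mice. Casq2 (chromosome 3, 102086415 to 102146514, plus strand), the form of heart and slow fibres, had 1.83 FPKM (0.792 to 2.87) in wheel running and 1.78 FPKM (0.604 to 2.96) in sedentary mice. The log2 fold was 0.10 for Casq1 and 0.036 for Casq2. Casq1 exceeded Casq2 13.9-fold in wheel running and 13.3-fold in sedentary mice.

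Of the SERCA pump genes none was called, and Atp2a1 came closest. Atp2a1 (chromosome 7, 126445858 to 126463108, minus strand) encodes SERCA1, the pump of fast fibres. It had 108 FPKM (82.7 to 133) in wheel running and 80.2 FPKM (63.4 to 97.0) in sedentary mice, a 1.34-fold difference with a log2 fold of 0.42. Its p of 0.0009 in the authors' deposited table gave a q-value of 0.0798, above the threshold of 0.05 and below 0.1, a limit passed by 1.23% of all tested genes in either direction and by 0.638% in the higher one. Atp2a2 (chromosome 5, 122453513 to 122502225, minus strand) encodes SERCA2, the pump of slow fibres and heart and, in another form, of most cells. It had 57.0 FPKM (45.9 to 68.1) in wheel running and 57.9 FPKM (46.3 to 69.6) in sedentary mice. Its log2 fold was -0.024, and became 0.018 after both groups were scaled to an equal total FPKM.

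Atp2a1 therefore stood at 1.89 times the level of Atp2a2 in wheel running mice and at 1.38 times in sedentary mice. That shift in the ratio was not tested. The third pump gene, Atp2a3, which platelets and other blood cells use, had 105 FPKM (78.1 to 132) in wheel running and 110 FPKM (83.4 to 136) in sedentary mice. The levels of the blood-cell and the fast-muscle pump gene were of similar size, with Atp2a1 at 1.02 times Atp2a3 in wheel running and 0.732 times in sedentary mice, and overlapping intervals in both groups.

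Sln (chromosome 9, 53850164 to 53854560, plus strand) encodes sarcolipin, a small membrane protein that uncouples SERCA from calcium transport. It had 2.202 FPKM (1.11 to 3.29) in wheel running and 1.30 FPKM (0.546 to 2.05) in sedentary mice. Its log2 fold of 0.72 was the largest of the 10, yet it was not called, with a p of 0.0225 and a q-value of 0.654 in the authors' deposited table. At the estimated depth these levels correspond to about 113 fragments over the wheel running libraries and about 63 over the sedentary ones. The inhibitors Mrln (myoregulin) and Pln (phospholamban) are related to it in action. Mrln had 2.01 FPKM (0 to 4.02) in wheel running and 3.20 FPKM (0.0900 to 6.30) in sedentary mice, and Pln had 0.833 FPKM (0 to 2.03) in wheel running and 1.01 FPKM (0 to 2.75) in sedentary mice. Neither was called, and the log2 folds of -0.64 and -0.25 have the opposite sign to that of Sln.

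**Figure D2:**
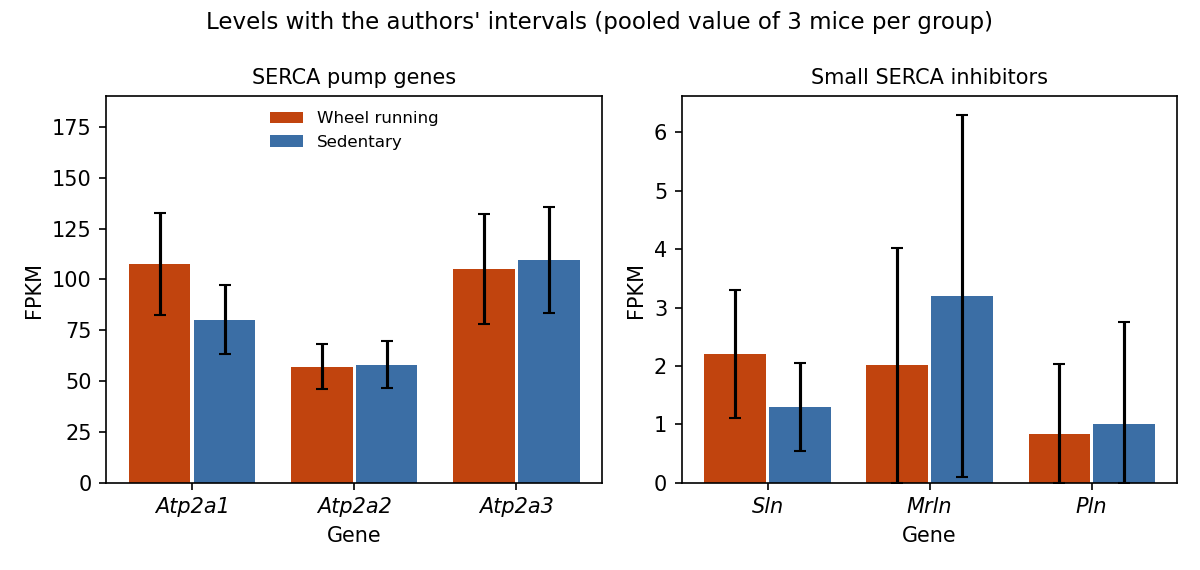
FPKM of the SERCA pump genes (left panel) and of 3 small SERCA inhibitors (right panel, another scale), with wheel running mice as the left bar and sedentary mice as the right bar of each pair, each the pooled value of 3 mice, and error bars for the authors' interval. Atp2a1 is at 108 FPKM in wheel running and 80.2 FPKM in sedentary mice, while the bars of Atp2a2 (57.0 FPKM in wheel running and 57.9 FPKM in sedentary mice) and Atp2a3 (105 FPKM in wheel running and 110 FPKM in sedentary mice) are near level and the inhibitors' intervals overlap.

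Pvalb (chromosome 15, 78191114 to 78206400, minus strand) encodes parvalbumin, the cytosolic calcium buffer of fast fibres, and was the most abundant of the 10 genes. It had 129 FPKM (101 to 157) in wheel running and 121 FPKM (97.5 to 145) in sedentary mice, with a log2 fold of 0.087 and no call.

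FPKM is scaled by transcript length, so the levels of the genes can be set in order. The places of Trdn, Atp2a1, Casq1 and Casq2 are less certain, as their coding forms differ much in length. In both groups the order was Pvalb, Atp2a1, Atp2a2, Casq1, Trdn, Cacna1s and Ryr1, with Sln, Jph1 and Casq2 lowest. Among the lowest genes, Sln ranked 8 in wheel running and 10 in sedentary mice, and Casq2 ranked 10 in wheel running and 8 in sedentary mice. The intervals of these 3 genes overlapped in both groups. In sedentary mice, Ryr1 also overlapped Casq2 and Jph1, and Cacna1s overlapped Casq2. In wheel running mice, Cacna1s overlapped Sln, Jph1 and Casq2. Casq1 and Trdn also overlapped in both groups, as did Cacna1s and Ryr1. Pvalb and Atp2a1 overlapped in wheel running but not in sedentary mice, and Atp2a1 and Atp2a2 overlapped in sedentary but not in wheel running mice. The steps from Atp2a2 to Casq1 and from Trdn to Cacna1s lay between intervals that did not overlap in either group.

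Of 50 further genes of the pathway, in 4 lists, 40 were tested by the authors and 0 were called, against the 0.941% of all tested genes. At an unadjusted p under 0.05 in the authors' deposited table, 3 of the 40 were higher and 0 lower. Of all tested genes, 3.42% were higher at that limit and 5.65% passed it in either direction. The median log2 fold was 0.09, and 24 of the 40 folds were positive, against 48.2% of all tested genes. Scaled to an equal total FPKM, the figures were 28 of 40 and 59.3%. Among the other genes of the release complex, 11 of 14 were tested, 9 had a positive fold and the median was 0.24. Among the abundant genes of this list, Fkbp1a, a RyR1-binding immunophilin used by many cell types, was at 55.1 FPKM in wheel running and 55.5 FPKM in sedentary mice. S100a1, a calcium sensor that binds RyR1, was at 53.4 FPKM in wheel running and 52.4 FPKM in sedentary mice, and Asph, whose products include the triadin partner junctin, at 24.3 FPKM in wheel running and 20.6 FPKM in sedentary mice. Hrc, which encodes a calcium-binding protein of the store, was singled out after its values were seen. It had 13.4 FPKM (10.4 to 16.5) in wheel running and 10.4 FPKM (7.86 to 12.9) in sedentary mice, with an unadjusted p of 0.00475 and a q-value of 0.262 in the authors' deposited table.

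The other uptake and buffering genes had a median log2 fold of -0.06, with 2 of 7 tested genes positive. Besides Atp2a3, the most abundant by the mean of both groups were Calr, the calcium buffer of the endoplasmic reticulum, at 253 FPKM in wheel running and 282 FPKM in sedentary mice, and the store cation channel genes Tmem38a (15.5 FPKM in wheel running and 13.9 FPKM in sedentary mice) and Tmem38b (12.3 FPKM in wheel running and 12.7 FPKM in sedentary mice). Strit1 was listed at 0 in both groups. Genes of membrane excitation had a median of 0.22, with 9 of 12 tested genes positive. Bin1, which shapes the transverse tubules, was at 31.8 FPKM in wheel running and 31.2 FPKM in sedentary mice. The sodium pump subunit gene Atp1b1 was at 26.9 FPKM in wheel running and 32.2 FPKM in sedentary mice and the phosphatase gene Mtm1 at 7.97 FPKM in wheel running and 7.88 FPKM in sedentary mice. Genes of store-operated entry and calcium signalling had a median of -0.01, with 4 of 10 positive; with the groups at an equal total FPKM the median was 0.03, with 7 of 10 positive. The calcineurin genes Ppp3ca (37.1 FPKM in wheel running and 37.8 FPKM in sedentary mice) and Ppp3cb (43.7 FPKM in wheel running and 43.5 FPKM in sedentary mice) and the store sensor Stim1 (28.2 FPKM in wheel running and 28.3 FPKM in sedentary mice) were close to level.

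**Figure D3:**
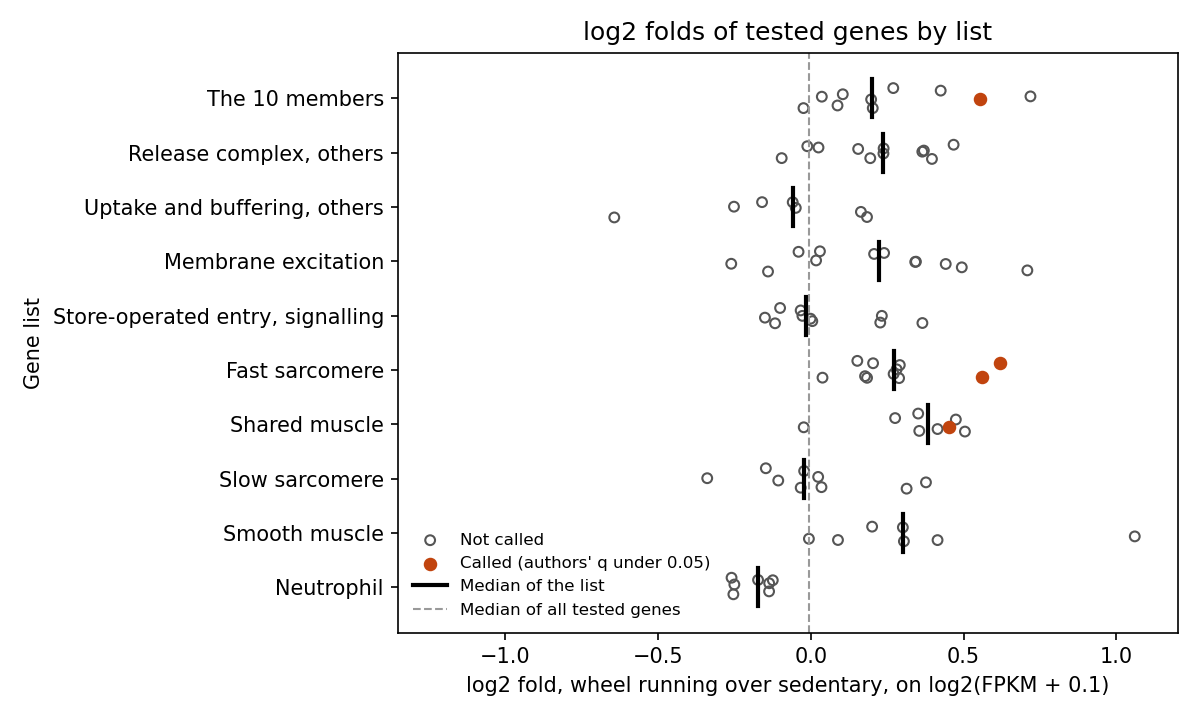
Log2 folds, wheel running over sedentary, of the tested genes in each list (circles; filled where called), with a bar at the list's median and a dashed line at the median of all tested genes. The 10 members have a median of 0.20, and the lists drawn run from a median of -0.17 (neutrophil) to 0.38 (shared muscle). Medians of 0.20 or more were not particular to muscle lists. Among the lists not drawn, medians ran from -0.16 for platelet genes to 0.56 for adipocyte genes, with 0.21 for osteoblast genes.

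Other muscle transcripts were also higher in the wheel running mice where they were called. Across all tested genes, 0.445% were called higher and 48.2% had a positive log2 fold. The lists were chosen with earlier results of these data known. All 11 fast sarcomere genes had a positive log2 fold, 2 were called higher (Myh1 by 0.62 and Myh2 by 0.56 on the log2 scale), the median was 0.27, and their summed level was 2071 FPKM in wheel running and 1767 FPKM in sedentary mice. The most abundant were Tnnt3 (445 FPKM in wheel running and 366 FPKM in sedentary mice) and Acta1 (336 FPKM in wheel running and 278 FPKM in sedentary mice). Of the 9 genes shared by fibre types, 7 of 8 tested were positive, Tcap was called higher (log2 fold 0.45), the median was 0.38 and the summed level was 651 FPKM in wheel running and 505 FPKM in sedentary mice. Ckm was the most abundant of these at 322 FPKM in wheel running and 253 FPKM in sedentary mice, and Pygm was listed at 0 in both groups. Of 9 slow sarcomere genes, 0 were called and 4 were positive, with a median of -0.02 that became 0.02, with 6 positive, at an equal total FPKM, and with summed levels of 672 FPKM in wheel running and 667 FPKM in sedentary mice. The most abundant slow-list genes were Tpm3, at 232 FPKM in wheel running and 257 FPKM in sedentary mice, and Mb (myoglobin), at 166 FPKM in wheel running and 128 FPKM in sedentary mice. Tpm3 was thus lower and Mb higher in wheel running mice, so the near-level sum does not stand for each gene of the list. Tpm3 made up the largest part of that sum, and whether its transcripts came from slow fibres was not tested. Mb is in the list although it encodes no sarcomere protein. The intervals of Myl3 and Tnnc1 began at 0 in both groups. How far the share of muscle in each bone sample entered the values of the 10 genes was not tested, and in bulk RNA fewer cells of a type and less RNA per cell cannot be told apart.

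Set against the median of the fast sarcomere list, the log2 folds of Ryr1, Atp2a1 and Sln were higher by 0.28, 0.15 and 0.45, and that of Jph1 was level with it. Those of Cacna1s, Trdn, Casq1, Pvalb, Casq2 and Atp2a2 were lower, with differences of -0.068, -0.074, -0.17, -0.18, -0.24 and -0.30. None of these differences was tested. The median used here is the log2 fold of Acta1, and folds in the fast sarcomere list ran from 0.038 to 0.62. The interval of Acta1 was wide, from 0 to 738 FPKM in wheel running and from 0 to 621 FPKM in sedentary mice.

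Other markers give the setting of these values. Of the cardiac genes, Nppa and Myl7 were listed at 0 in both groups and Myh6 was at 0.144 FPKM in wheel running and 0.147 FPKM in sedentary mice. Actc1 was at 1.70 FPKM in wheel running and 1.29 FPKM in sedentary mice, Tnni3 at 0.993 FPKM in wheel running and 1.41 FPKM in sedentary mice and Tnnt2 at 0.791 FPKM in wheel running and 0.537 FPKM in sedentary mice. These 3 were the cardiac genes tested, none was called, and their median log2 fold was 0.37. Of the satellite cell and myoblast genes, Cdh15 alone was tested, at 9.18 FPKM in wheel running and 7.65 FPKM in sedentary mice, with intervals from 0 and no call. Pax7 was at 0.0309 FPKM in wheel running and 0.0304 FPKM in sedentary mice. Myog was at 0.417 FPKM (0.0717 to 0.762) in wheel running and 0.0372 FPKM (0 to 0.134) in sedentary mice. Myod1 was at 0.207 FPKM (0 to 0.420) in wheel running and 0.0958 FPKM (0 to 0.228) in sedentary mice, and Myf5 was at 0.0238 FPKM in wheel running mice and listed at 0 in sedentary mice. No smooth muscle gene was called among 7 tested (median 0.30). This list includes Des (log2 fold 0.41), which is also counted among the genes shared by fibre types. Adipocyte genes had a median of 0.56 with 3 of 8 called higher (Adipoq, Fabp4 and Cfd). Tendon and fibroblast genes had a median of 0.37 with 3 of 8 called higher (Thbs4, Fmod and Tnxb). Of all tested genes, 0.445% were called higher and 0.941% were called in either direction. These marker lists, too, were chosen with earlier results of these data known. The median was -0.17 for 7 neutrophil genes, -0.16 for 5 platelet genes, 0.03 for 5 erythroid genes, 0.15 for 5 endothelial genes, 0.11 for 5 tested nerve and Schwann cell genes, 0.25 for 5 tested osteocyte genes, of which Sost and Mepe were called higher and Fgf23 lower, and 0.21 for 6 osteoblast genes.

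Some of the 10 genes share exon bases with a gene on the opposite strand, and no source used here says whether strand was used in counting. For Ryr1 these are the predicted genes Gm26604 and Gm44408, both listed at 0 in both groups. For Atp2a1 it is Rabep2, which had 12.0 FPKM in wheel running and 12.95 FPKM in sedentary mice, and for Casq1 it is Gm17224, at 0.648 FPKM in wheel running and 0.245 FPKM in sedentary mice. For Cacna1s it is Gm37759, at 0.116 FPKM in wheel running and 0.173 FPKM in sedentary mice. For Atp2a2 it is Gm43361, at 0.0131 FPKM in wheel running and 0.0149 FPKM in sedentary mice. For Jph1 it is Gm28376, listed at 0 in both groups. Casq2, Pvalb, Sln and Trdn share exon bases with no annotated gene.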

How the data were processed

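Per the labels' protocols, TRIzol was used to extract the RNA and a directional NEBNext kit to make the libraries. Build GRCm38, Cufflinks 2.2.1, HISAT2 2.2.1, SAMtools 1.10 and Trimmomatic 0.39 appear, with no role given, in the submitters' processing notes. The column names are those of Cuffdiff, per the file headers. What the authors deposited is 1 FPKM per gene and group with an interval of unstated level, a log2 fold, a test statistic (a score), and a p-value and q-value. As 0 columns belong to single libraries, mice could not be compared with each other, and the authors' q-value was used as the call. The design had also allowed for limma on single libraries, which was not run. Of 55484 genes, 15508 were tested, 39971 have the status NOTEST and 5 the status HIDATA. The deposited q-value matched a Benjamini-Hochberg adjustment within 5.21e-07.

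Log2 folds, list counts, medians, ratios and recomputed q-values came from Python 3.11.15 with pandas 2.3.3 and numpy 2.4.6, and the code was tested on simulated data. GENCODE vM21 (GRCm38) gave coordinates and transcript lengths through the Ensembl IDs. For the depth estimate, single-exon genes over 1500 nt were shortened by 255 nt in the wheel running and 250 nt in the sedentary group. The members and lists were chosen with earlier results of these data known. All 10 members are named, and of the other pathway lists the called genes, the 4 most abundant per list and paralogs of members; of the marker lists, called genes and, for the muscle lists, the most abundant. Some genes that this rule names are not reported here. Hrc, Mrln, Pln, Strit1, the genes on opposite strands and the markers near 0 were named after their values were seen.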

Additional observations from a re-analysis of the deposited data

How the results depend on the processing

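No paired analysis was possible because every deposited level is that of a whole group. Libraries could not be left out either, so a single mouse behind a value would not be seen. The demand that the statistic reach 1.96 in size was chosen after seeing the data. The count of called genes among the 10 was 1 with q under 0.05, 1 with q under 0.01 and 1 with q recomputed over genes with FPKM of at least 1. Since q under 0.01 keeps only the genes tied at the lowest p, that setting is no separate check of Ryr1. The count was 2 with q under 0.1, when Atp2a1 joined Ryr1. It was 0 when the intervals of the groups had to lie apart and 0 when the statistic had to reach 1.96 in size. The 146 calls over all genes fell to 69 with intervals apart, and numbered between 108 and 190 under the other settings. The count for the other pathway lists was 0 under every setting. The median log2 fold of the 10 genes was 0.18 with a pseudocount of 1, 0.24 with the groups rescaled to the same total FPKM and 0.23 with the same 75th percentile, and moved by less than 0.01 under the other settings. The log2 fold of Atp2a2 turned to 0.018 with the same total and 0.0040 with the same 75th percentile. Taken minus the fast sarcomere median, the signs of Cacna1s (-0.068), Trdn (-0.074), Casq1 (-0.17), Pvalb (-0.18), Casq2 (-0.24) and Jph1 (-0.0011) turned, which follows from subtracting a positive value. The ratios of Atp2a1 to Atp2a2 and of Casq1 to Casq2 were the same from both tables.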

Other observations

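Several low genes of the neuromuscular junction and the muscle membrane were not tested by the authors, and were singled out after their values were seen. Chrna1, which encodes a subunit of the muscle acetylcholine receptor, was at 0.514 FPKM (0.262 to 0.765) in wheel running mice and 0.216 FPKM (0.0764 to 0.356) in sedentary mice. Musk, the receptor kinase that organises the junction, was at 0.302 FPKM (0.0281 to 0.576) in wheel running and 0.105 FPKM (0 to 0.319) in sedentary mice. Scn4a, the muscle sodium channel, was at 0.465 FPKM (0 to 1.23) in wheel running and 0.123 FPKM (0 to 0.483) in sedentary mice. The intervals of the groups overlapped for all 3 genes. Chrnd and Chrne, other subunits of the receptor, were at 0.0181 and 0.0629 FPKM in wheel running mice and at 0.0821 and 0.0151 FPKM in sedentary mice. Chrnb1, the receptor subunit gene that was tested, was at 1.502 FPKM (0.591 to 2.41) in wheel running and 1.16 FPKM (0.331 to 1.99) in sedentary mice and was not called. Cav3, which encodes the muscle caveolin, was tested but not called, at 1.79 FPKM (0.829 to 2.75) in wheel running and 1.06 FPKM (0.388 to 1.73) in sedentary mice, with an unadjusted p of 0.0324 and a q-value of 0.760 in the authors' deposited table.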
